A study of Mus musculus with 6 samples.

Results

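The Toll-like receptor genes Tlr1, Tlr2, Tlr3, Tlr4, Tlr5, Tlr6, Tlr9 and Tlr12 were described in 6 lists of H3K4me3 ChIP-Seq peaks from STHdh cells. These 8 genes are among 21911 protein-coding genes of the annotation used (GENCODE mouse release M21). A promoter counted as marked in a list if any transcript start of the gene had a peak at most 1 kb away, and the stretch holding Tlr1 and Tlr6 on chromosome 5 was examined as a whole. The rule gave 24 peaks of the 227418 in all 6 lists. They were 6 of 38392 in Q7SST and 4 of 40406 in Q111SST, and 3 of 33721 after cyproheptadine, 4 of 45564 after loxapine, 3 of 30758 after DKI and 4 of 38577 after meclizine. The genes were selected on results from the same 6 lists, so which promoters were marked and how strongly is given as a description.

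STHdh cells are immortalised striatal progenitor cells of the mouse, labelled as strain C57BL/6. Q7SST is the wild-type line, STHdhQ7, and Q111SST is the STHdhQ111 line, which carries an expanded glutamine repeat knocked into the Huntingtin gene, the cause of Huntington's disease. The remaining 4 lists came from STHdhQ111 cells given cyproheptadine, loxapine, diacylglycerol kinase inhibitor II (DKI) or meclizine, each at 10 µM. All cells, controls included, were kept for 24 hours in medium without serum, and both control lists came from cells given vehicle. Each genotype is represented by 1 cell line, so genotype and line cannot be told apart. There was 1 list per condition, so no spread between replicates could be measured and no test between conditions was made.

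Toll-like receptors are membrane proteins that recognise molecules of microbes or of damaged cells and pass the signal through adaptor proteins to NF-kB and interferon regulatory factors. Those at the cell surface (Tlr1, Tlr2, Tlr4, Tlr5 and Tlr6) bind lipids, lipoproteins and flagellin, and those in endosomes (Tlr3, Tlr7, Tlr8, Tlr9 and, in the mouse, Tlr11, Tlr12 and Tlr13) bind nucleic acids or protozoan profilin. In the brain they are best known in microglia, and several are also made by astrocytes and neurons. H3K4me3, trimethylation of lysine 4 of histone H3, gathers at the starts of active or poised genes, and at many promoters rich in CpG dinucleotides whether or not the gene is transcribed.

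Tlr1 and Tlr6 lie side by side on the minus strand of chromosome 5, and both were marked in Q7SST and in none of the 5 STHdhQ111 lists. Their sequences are shown because base composition is a property that the choice of genes did not use. All are on GRCm38 and on the strand of the gene, 5′ to 3′, with CpG dinucleotides in capitals. The stretches that end at the base before the first annotated start came from the RefSeq promoter table, and the stretches of first intron under the 2 Q7SST peaks from the RefSeq genome.
Tlr1 upstream, chr5:64933564-64933808: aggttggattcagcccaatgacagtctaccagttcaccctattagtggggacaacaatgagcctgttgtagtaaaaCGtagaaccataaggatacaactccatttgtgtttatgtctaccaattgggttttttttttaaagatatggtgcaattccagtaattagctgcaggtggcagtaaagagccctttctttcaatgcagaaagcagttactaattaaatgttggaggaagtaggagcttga
Tlr1 intron under the peak, chr5:64933325-64933525: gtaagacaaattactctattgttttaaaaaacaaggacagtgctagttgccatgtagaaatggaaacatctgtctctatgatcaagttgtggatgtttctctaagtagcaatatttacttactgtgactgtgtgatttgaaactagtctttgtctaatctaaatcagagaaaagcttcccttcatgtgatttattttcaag
Tlr6 upstream, chr5:64960098-64960298: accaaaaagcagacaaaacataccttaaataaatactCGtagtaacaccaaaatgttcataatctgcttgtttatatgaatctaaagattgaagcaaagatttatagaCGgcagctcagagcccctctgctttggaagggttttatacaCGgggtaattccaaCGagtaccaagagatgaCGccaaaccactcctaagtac
Tlr6 intron under the peak, chr5:64959634-64959933: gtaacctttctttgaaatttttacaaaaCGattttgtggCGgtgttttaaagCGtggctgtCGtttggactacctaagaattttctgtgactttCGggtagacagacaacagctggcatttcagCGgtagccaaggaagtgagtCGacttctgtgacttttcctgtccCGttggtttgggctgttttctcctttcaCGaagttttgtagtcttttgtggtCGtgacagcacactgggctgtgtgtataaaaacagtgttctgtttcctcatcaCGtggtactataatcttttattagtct
The Tlr1 stretches hold 1 CpG in 245 bases upstream and 0 in 201 bases of the intron, and the Tlr6 stretches hold 5 in 201 bases upstream and 11 in 300 bases of the intron. The 2 neighbouring receptors therefore differed in CpG content although both were marked in the same list.

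Of the 8 receptors, 6 were marked in Q7SST (Tlr1, Tlr2, Tlr3, Tlr4, Tlr6 and Tlr12), beside 59.9% of all protein-coding genes (95% Wilson interval 59.2 to 60.5). In Q111SST 4 were marked (Tlr2, Tlr3, Tlr4 and Tlr12), beside 58.4% of all genes (57.7 to 59.0). The same 4 were marked with loxapine, where 58.1% of all genes were, and with meclizine, where 58.6% were. With cyproheptadine and DKI 3 were marked (Tlr2, Tlr3 and Tlr4), beside 55.4% and 55.8% of all genes. Tlr2, Tlr3 and Tlr4 thus had a peak in all 6 lists, as did 53.5% of all genes. Tlr5 and Tlr9 had none in any list, as did 37.0% of all genes.

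Relative to Q111SST, Q7SST gained 2 receptors, Tlr1 and Tlr6, and lost 0. At a score of at least 47, the pooled median, Q7SST also lost 2, Tlr2 and Tlr12, and both lists then marked 4. Without that threshold, gains covered 3.60% of all genes and losses 2.08%. Against the same Q111SST list, cyproheptadine and DKI each lacked 1 receptor, Tlr12, and gained 0. The losses covered 3.33% of all genes with cyproheptadine and 2.88% with DKI, and the gains 0.306% and 0.269%. Loxapine and meclizine gained and lost 0 receptors, beside 1.01% and 1.02% of all genes gained and 1.24% and 0.799% lost. All 5 comparisons share the Q111SST list.

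**Figure D1:**
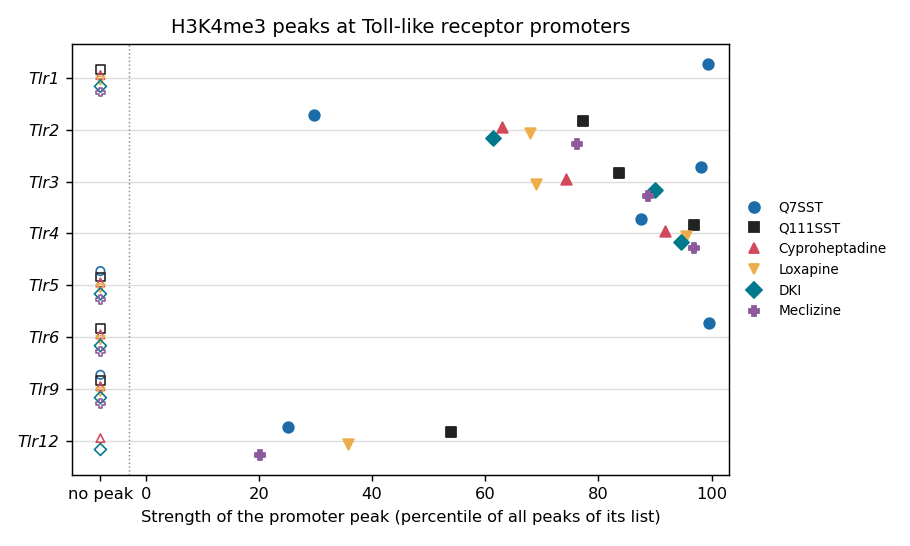
Strength of the promoter peak of each Toll-like receptor gene (rows) in the 6 lists (symbols), as the percentile of its score among all peaks of the same list on the horizontal axis; open symbols on the left stand for a list with no peak within 1 kb. Tlr1 and Tlr6 have a filled symbol in Q7SST alone, at 99.3 and 99.5, and the Q7SST symbol of Tlr2, at 29.8, lies left of the other 5 lists.

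Strength is given as the deposited score of the peak and as the percentile of that score among all peaks of the same list, since the scale of the score across lists is not given in the sources used here. The median percentile of the marked receptors was 92.9 in Q7SST and 80.5 in Q111SST, and 74.3 after cyproheptadine, 68.5 after loxapine, 90.0 after DKI and 82.5 after meclizine. Over all marked promoters it was 80.4, 82.6, 79.5, 83.0, 76.3 and 80.3, in the same order. The receptors lay on both sides of the median of all genes. The medians of the receptors rest on 3 to 6 genes each, and the genes in them differ between lists.

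Tlr1 forms a heterodimer with Tlr2 that recognises triacylated bacterial lipopeptides. The gene (ENSMUSG00000044827.10) occupies chr5:64924679-64933563. In Q7SST its start lay under a peak at chr5:64933316-64933603, 288 bp wide, with a score of 244, at percentile 99.3. The peak reached from 40 bp before the most upstream start to 247 bp after it, and covered 201 bp of intron and 47 bp of exon. In the 5 STHdhQ111 lists no peak lay within 1 kb, and the nearest was 35433 bp to 35605 bp away. The Tlr1 promoter therefore had a single, very narrow and high-scoring peak in 1 list.

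Tlr6 pairs with Tlr2 to recognise diacylated lipopeptides. The gene (ENSMUSG00000051498.6) occupies chr5:64952031-64960097. Its Q7SST peak, at chr5:64959214-64960102, was 889 bp wide with a score of 258, at percentile 99.5. It began 5 bp before the most upstream start and ended 883 bp after it, over 164 bp of exon, all 5′ untranslated, and 720 bp of intron. The nearest peak of the STHdhQ111 lists was 9027 bp away in Q111SST, 9071 bp after cyproheptadine, 8899 bp after loxapine, 8928 bp after DKI and 9068 bp after meclizine. Those were the edges of the promoter peak of Fam114a1, the neighbouring gene on the other side.

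Over the whole stretch from the end of Tlr1 to the start of Tlr6 (chr5:64924679-64960097, 35419 bp), Q7SST held 2 peaks and each STHdhQ111 list held 0. The genes are 18467 bp apart and their peaks 25610 bp apart. Fam114a1, whose start is 9974 bp from that of Tlr6, was marked in all 6 lists, at percentile 66.4 in Q7SST and 84.9 in Q111SST, and 74.9 after cyproheptadine, 81.1 after loxapine, 83.6 after DKI and 79.8 after meclizine. On the other side Klf3, a transcription factor gene, was also marked in all 6 lists, at 82.4 to 97.0. The promoters of the genes on either side were thus marked in every list, and those of both receptors in Q7SST alone.

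**Figure D2:**
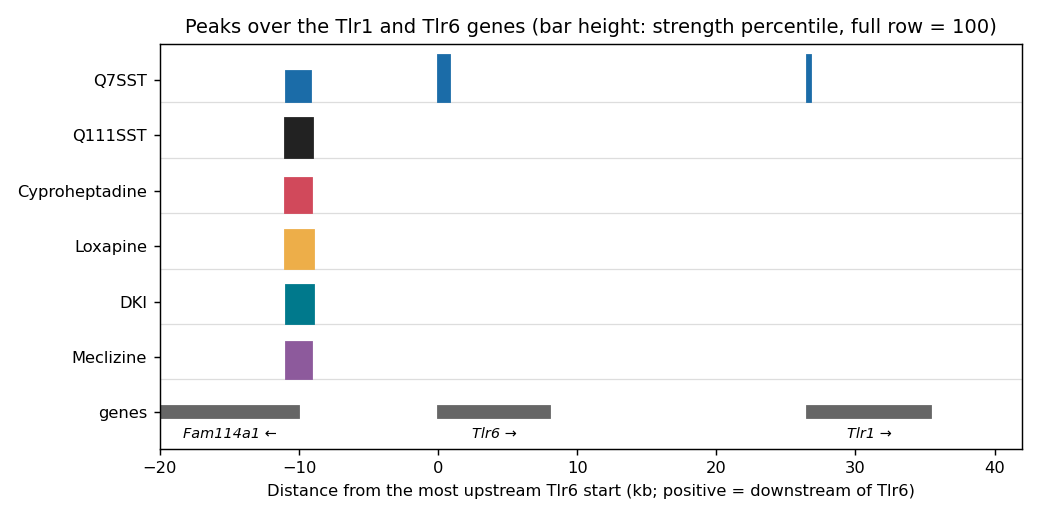
Peaks of the 6 lists over Tlr6, Tlr1 and the start of Fam114a1, by distance from the most upstream Tlr6 start in kb (horizontal axis), with bar height proportional to the strength percentile and genes as grey boxes with arrows for the direction of transcription. All 6 lists have the Fam114a1 peak, and Q7SST alone has peaks at the Tlr6 and Tlr1 starts.

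A promoter marked in Q7SST and in none of the STHdhQ111 lists was found for 610 genes, 2.78% of all. By score Tlr6 ranked 2 and Tlr1 ranked 3 among them. The median percentile of the 610 was 32.6, so both receptor peaks stood near the top of a group that was mostly weak. Over the percentiles in the 6 lists (0 where unmarked), the genes most like Tlr1 by Euclidean distance were Slc45a2, a melanosome transporter (distance 0.32), and the zinc finger genes Zfp882 (2.64) and Zfp605 (4.64). The same 3 genes were nearest to Tlr6, at 0.07, 2.88 and 4.88. The Slc45a2 peak in Q7SST had a score of 263 and was also narrow, at 317 bp, while those of Zfp882 and Zfp605 were 1115 bp and 855 bp wide.

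In Q7SST, 275 peaks (0.716%) had a score of at least that of Tlr1 and 178 (0.464%) at least that of Tlr6. For the 275, the median width was 1091 bp. Of them, 3 (1.09%) were as narrow as the Tlr1 peak or narrower, against 10.0% of all Q7SST peaks. The Tlr1 peak was narrow for its score. The Tlr6 peak was not, since 80 of its 178 peaks (44.9%) were as narrow, and their median width was 970 bp.

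**Figure D3:**
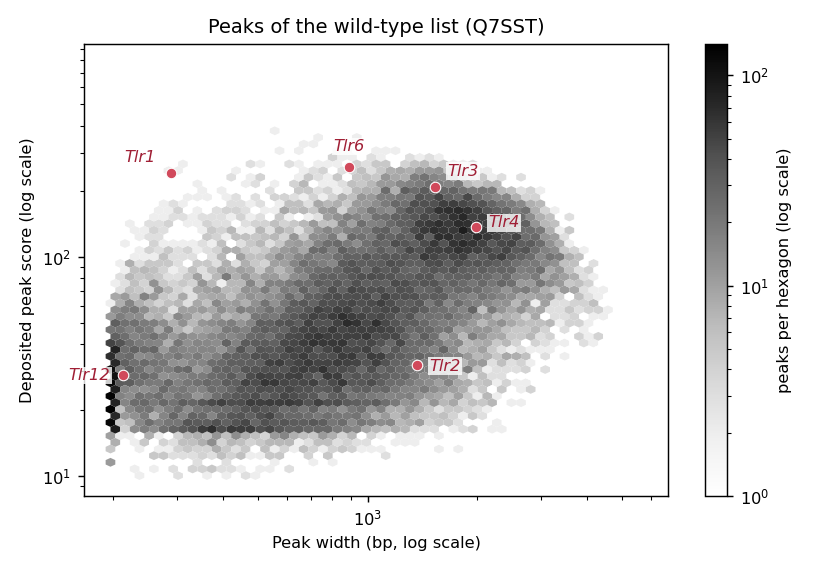
Width in bp (horizontal, log scale) and deposited score (vertical, log scale) of the peaks of Q7SST, as grey hexagons shaded by the number of peaks, with the 6 Toll-like receptor peaks in red. Tlr1, 288 bp wide with a score of 244, lies near the top of the peaks of its width, Tlr6, 889 bp wide, has the highest score of the 6, and Tlr3 and Tlr4 lie among the wide, high-scoring peaks.

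The sequence under the Tlr1 peak was low in G and C. The 288 bp held 36.1% G or C and 2 CpG, an observed over expected CpG ratio of 0.22. Of the 11768 peaks that were the strongest at a promoter in Q7SST, 0.416% had as low a share of G and C and 2.91% as low a ratio, with medians of 53.5% and 0.63. Among the 159 of them with at least the Tlr1 score, 4 (2.52%) were as low in G and C. The Tlr6 peak held 42.3% G or C and 25 CpG, a ratio of 0.63, the same as the median, and 4.18% of the 11768 promoter peaks had as low a share of G and C. Among the 93 with at least the Tlr6 score, 17 (18.3%) were as low in G and C. None of these comparisons was matched for width.

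Neither peak held a stretch of read length repeated exactly elsewhere in the genome. Of the 239 stretches of 50 bases in the Tlr1 peak and the 840 in the Tlr6 peak, 0 had an exact copy elsewhere in GRCm38, and the peaks shared 0 such stretches with each other. Repeats, soft-masked in the reference, made up 9.72% of the Tlr1 peak and 10.2% of the Tlr6 peak. The peaks of Tlr2, Tlr4 and Tlr12 also had 0 copied stretches in any list, and those of Tlr3 had 8, at most 0.879% of a peak.

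Tlr2, the shared partner of Tlr1 and Tlr6 (ENSMUSG00000027995.10, chr3:83836272-83841767, minus strand), was marked in all 6 lists. Its score was 32 in Q7SST and 95 in Q111SST, and 56 after cyproheptadine, 72 after loxapine, 60 after DKI and 109 after meclizine. The percentiles were 29.8, 77.3, 63.0, 68.0, 61.3 and 76.2, in the same order. Tlr2 was therefore weakest in the list where its partners were marked, with a difference of -47.4 percentile points from Q111SST, and one at least as large in that direction was found for 52 of the 12335 genes marked in both lists (0.422%). The median difference over those genes was -1.0.

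Among all peaks of a list, the Tlr2 percentile was with each compound below that of Q111SST, with a difference of -14.2 points after cyproheptadine, -9.3 after loxapine, -16.0 after DKI and -1.1 after meclizine. The median difference of all genes was -3.7, -0.4, -6.6 and -1.5, and 34.4% of the 11713 genes marked in all 6 lists were below Q111SST with all 4 compounds. The direction at Tlr2 was thus a common one, and the meclizine difference was smaller than that of the median gene. Ranked among promoter peaks alone, Tlr2 stood at 5.2 in Q7SST and 37.7 in Q111SST, and at 22.9 after cyproheptadine, 24.5 after loxapine, 27.4 after DKI and 41.0 after meclizine, so the direction for meclizine turned. The peaks were 1128 bp to 1786 bp wide and shared 993 bp over the first exon and the first intron. The start itself lay outside the peak with loxapine, by 17 bp, and with DKI, by 132 bp.

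A second region upstream of Tlr2, at -3816 bp to -2644 bp from its start, went the other way. It had a score of 52 in Q7SST and 22 in Q111SST, and 16 after cyproheptadine, 17 after loxapine and 18 after meclizine, and no peak after DKI. In Q7SST the upstream peak thus had a higher score than the promoter peak, and in every other list a lower score or none. A region 12851 bp to 14383 bp downstream of the start, outside the gene, had a peak in all 6 lists, with a score of 51 in Q7SST and 90 to 145 in the STHdhQ111 lists.

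Tlr4 recognises bacterial lipopolysaccharide with the co-receptors Cd14 and Ly96. The gene (ENSMUSG00000039005.13, chr4:66827584-66930284, plus strand) had the narrowest range of percentile, though not of score, among the 3 receptors marked in all 6 lists. Its score was 137 in Q7SST and 182 in Q111SST, and 117 after cyproheptadine, 169 after loxapine, 142 after DKI and 209 after meclizine, at percentiles 87.6, 96.9, 91.7, 95.4, 94.6 and 96.9. The peaks were 1979 bp to 2244 bp wide, and 1979 bp were common to all 6. The Q7SST percentile differed from Q111SST by -9.3 points, as low a difference as in 14.2% of the genes marked in both, and the compounds differed from Q111SST by 0.0 to -5.2 points. Ranked among promoter peaks alone, Tlr4 stood at 67.5 in Q7SST and 91.2 in Q111SST, and at 78.8 after cyproheptadine, 85.3 after loxapine, 88.3 after DKI and 92.3 after meclizine, so the differences were larger and meclizine stood above Q111SST.

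Inside the body of Tlr4, peaks were present in every STHdhQ111 list and absent from Q7SST. Peaks inside the gene and over 1 kb from any start numbered 0 in Q7SST and 6 in Q111SST, and 6 after cyproheptadine, 7 after loxapine, 4 after DKI and 7 after meclizine. They fell into 7 regions between 9918 bp and 67629 bp downstream of the start and covered 4258 bp, 3983 bp, 4479 bp, 1717 bp and 4563 bp in the 5 STHdhQ111 lists. Their scores ran from 12 to 61 and their percentiles from 2.8 to 61.4, all below the median marked promoter of the same list. Of the 7 regions, the 3 that had a peak in all 5 STHdhQ111 lists began 9918 bp, 23615 bp and 53804 bp downstream.

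At least 4 such gene-body peaks in each STHdhQ111 list were found for 526 genes (2.40%), and 5 of these (0.951%) had 0 in Q7SST. They were Arhgap31, Ccdc192, Grik2, Mgat4c and Tlr4. This criterion was set after the Tlr4 values were seen. Tlr4, at 102701 bp, is the shortest of the 5 genes.

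**Figure D4:**
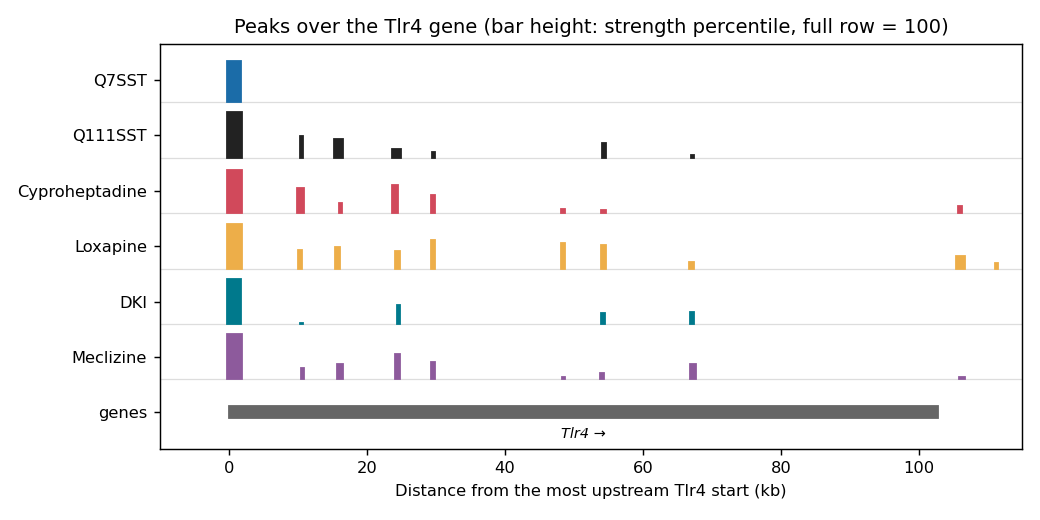
Peaks of the 6 lists over Tlr4 by distance from its most upstream start in kb (horizontal axis), with bar height proportional to the strength percentile and the gene as a grey box. The promoter peak is present in all 6 lists, and the small peaks inside the gene number 0 in Q7SST and 4 to 7 in the STHdhQ111 lists.

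Tlr3 recognises double-stranded RNA in endosomes and signals through the adaptor Ticam1. The gene (ENSMUSG00000031639.12, chr8:45395665-45411080, minus strand) was marked in all 6 lists, over a stretch that the antisense gene Gm45542 also overlaps. Its score was 210 in Q7SST and 115 in Q111SST, and 74 after cyproheptadine, 74 after loxapine, 120 after DKI and 154 after meclizine. The percentiles were 98.2, 83.7, 74.3, 69.0, 90.0 and 88.8. Tlr3 was strongest in Q7SST, 14.5 points above Q111SST, and 5.61% of genes marked in both lists had as large a rise. Ranked among promoter peaks alone, Tlr3 stood at 96.0 in Q7SST and 52.6 in Q111SST, and at 39.7 after cyproheptadine, 25.5 after loxapine, 78.0 after DKI and 70.6 after meclizine. The order of the lists relative to Q111SST was the same by both rankings, and the differences were larger among promoter peaks.

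The Tlr3 percentile differed from Q111SST by -9.4 points after cyproheptadine and -14.7 after loxapine, and by 6.2 after DKI and 5.1 after meclizine. A strength below Q111SST with the first pair and above it with the second was found for 2.01% of the genes marked in all 6 lists. The pattern counted is the one Tlr3 itself shows, and the share of genes with the opposite pattern was not counted. With 1 list per condition, whether the Tlr3 differences are larger than replicate spread was not tested. The peaks were 959 bp to 1984 bp wide, and DKI had the narrowest.

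Tlr12 binds profilin of protozoa together with Tlr11. The gene (ENSMUSG00000062545.4, chr4:128615443-128618619, minus strand) had a weak peak upstream of its start in 4 lists and none with cyproheptadine or DKI, a pattern of 186 genes (0.849%). The score was 29 in Q7SST, 48 in Q111SST, 32 with loxapine and 26 with meclizine, at percentiles 25.2, 53.9, 35.8 and 20.2. No peak reached the start. The nearest edge was 587 bp from a start in Q7SST, 534 bp in Q111SST, 431 bp with loxapine and 519 bp with meclizine, so these peaks were the nearest to the limit of 1 kb among those inside it. The lists without the peak were also the 2 with the fewest peaks. With every list cut to its 30758 strongest peaks, Tlr12 was marked in Q7SST, in Q111SST and with loxapine, and unmarked with cyproheptadine, DKI and meclizine. Zscan20, the neighbouring gene, was marked in all 6 lists, at 87.5 to 96.6.

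The 4 Tlr12 peaks had 213 bp in common, which is shown because the element lies outside the gene and had no peak in 2 of the 6 lists. It is on the minus strand of GRCm38, with its only CpG in capitals.
Tlr12 shared stretch, chr4:128619206-128619418: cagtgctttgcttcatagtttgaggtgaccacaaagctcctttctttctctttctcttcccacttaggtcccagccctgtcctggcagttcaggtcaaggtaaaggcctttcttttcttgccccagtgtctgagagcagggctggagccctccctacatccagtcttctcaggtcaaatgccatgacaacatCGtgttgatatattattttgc
The stretch is the whole of the Q7SST peak, the narrowest of the 4, and its observed over expected CpG ratio was 0.08. The ratio was 0.17 for the Q111SST peak, 0.16 with loxapine and 0.23 with meclizine. Of the 11768 peaks that were the strongest at a promoter in Q7SST, 0.348% had a ratio as low as 0.08. Those peaks were not matched for width. By the percentiles in the 6 lists, the genes most like Tlr12 were Irf2bpl (distance 13.96), Ssc5d (14.76) and C1ql3 (16.21), which is a looser match than those of Tlr1 and Tlr6.

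Tlr5, the receptor of bacterial flagellin (ENSMUSG00000079164.8, chr1:182954788-182976044, plus strand), was unmarked in all 6 lists. Its nearest peak was 4729 bp from a start in Q7SST and 1316 bp in Q111SST, and 9635 bp after cyproheptadine, 1332 bp after loxapine, 3130 bp after DKI and 1620 bp after meclizine. The peak in Q111SST was the nearest to the limit of 1 kb among those outside it. Tlr5 did have peaks inside the gene. A region 4769 bp to 5544 bp downstream of the start had a score of 138 in Q7SST, 31 in Q111SST, 26 with loxapine and 94 with meclizine, at percentiles 87.8, 36.8, 27.4 and 70.7. Cyproheptadine and DKI had no peak there. These 2 lists, which hold the fewest peaks, also lacked the Tlr12 peak, and a link between the 2 genes was not tested. A weaker region 1356 bp to 1940 bp downstream had a score of 22 in Q111SST, 26 with loxapine and 20 with meclizine.

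Tlr9 recognises unmethylated CpG DNA in endosomes. The gene (ENSMUSG00000045322.10, chr9:106222598-106226883, plus strand) had no peak in or near it, and the nearest was 10546 bp from its start in Q7SST and 18626 bp to 18810 bp in the STHdhQ111 lists. The genes on either side, Twf2 and Alas1, were marked in all 6 lists. The 250 bases before its start are shown because they contain no CpG, which holds for 7.87% of promoters.
Tlr9 upstream, chr9:106222348-106222597: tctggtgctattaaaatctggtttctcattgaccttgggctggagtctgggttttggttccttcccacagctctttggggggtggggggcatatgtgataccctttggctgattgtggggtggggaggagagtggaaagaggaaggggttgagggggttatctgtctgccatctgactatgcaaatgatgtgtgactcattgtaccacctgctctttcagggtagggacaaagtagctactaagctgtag
The share of G and C was 50.4%, close to the median promoter, so the absence of CpG did not come with a low share of G and C.

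The other 4 mouse receptors, Tlr7, Tlr8, Tlr11 and Tlr13, were unmarked in every list. Tlr7 had a peak 1943 bp to 2311 bp from a start in all 6 lists. The nearest peak to Tlr13 was 6769 bp to 7113 bp away in the STHdhQ111 lists and 28047 bp away in Q7SST. For Tlr8 it was about 54 kb away in all 6 lists (54051 bp to 54355 bp), and for Tlr11 it was 294968 bp or more.

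The 250 bases before the RefSeq start were examined for the 7 members and 3 other receptors found in the promoter table (GRCm38.p6), beside 32851 promoters with a median CpG ratio of 0.37. The ratio was 0.11 for Tlr1, 0.59 for Tlr6, 0.45 for Tlr2, 0.43 for Tlr3, 0.21 for Tlr5, 0.24 for Tlr12 and 0.00 for Tlr9. For Tlr1 and Tlr6 these are the promoters of the starts covered by the peaks. Tlr2, Tlr3 and Tlr6 lay above the median promoter. Tlr5 and Tlr9, which were unmarked, lay below it, and so did Tlr1 and Tlr12. Of the other receptors, which were all unmarked, Tlr13 was at 0.41, above the median promoter, and Tlr8 and Tlr11 were at 0.17 and 0.09. A second RefSeq start of Tlr1, inside the gene, was at 0.53, and that of Tlr6 at 0.44.

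Short motifs were searched on both strands of these 250 bases, and a match describes letters only. Tlr1 had 3 matches to the CCAAT box (CCAAT, in 33.8% of promoters) and 1 to GAGGAA, the core bound by PU.1-type ETS factors of myeloid cells (23.3%). Tlr6 had 3 matches to the TATA box TATAAA (12.4%) and 1 to an NF-kB pattern of GGG and CC separated by 5 bases (45.8%). Tlr2 had 3 overlapping NF-kB matches and 2 matches to the GC box GGGCGG (32.7%), and Tlr3 had 2 NF-kB matches and 1 to the C/EBP pattern TTGCNNAA (9.56%). In these 250 bases the 2 neighbours had no searched motif in common. The Tlr6 intron stretch printed above did hold 1 GAGGAA, the motif found upstream of Tlr1, and 1 TATA box.

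Of the remaining members, Tlr5 had 2 GC boxes, 1 CCAAT box and 1 NF-kB match, Tlr12 had 1 NF-kB match, and Tlr9 had 1 GAGGAA and 1 AP-1 match (TGANTCA, 6.75%). An interferon response pattern of 2 GAAA runs separated by 2 bases (2.98%) was found in the Tlr1 intron stretch and the Tlr12 stretch printed above, and 2 times before the second RefSeq start of Tlr6, which lies inside the gene. The cyclic AMP response element TGACGTCA (1.55%) was in none of the 7 members.

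Genes taken to act with the receptors were grouped in 6 lists of 65 genes. Promoters of 48 were marked in all 6 peak lists (53.5% of all genes were), 10 in none (37.0%) and 7 in some (9.52%), and 3 of those 7 in Q7SST alone (2.78%). The counts of single lists below can be set beside the same shares. The signalling core was marked throughout, with 15 of 15 kinases and ubiquitin ligases and 11 of 11 transcription factors in all 6 lists. The strongest of these kinases, ligases and factors in Q111SST were Peli1, a ubiquitin ligase (99.2), Tbk1, the kinase of interferon regulatory factor Irf3 (98.5), and Nfkb1, a subunit of NF-kB (98.1).

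Adaptors, which link the receptors to the kinases, and proteins that act with them were marked in 6 of 6 cases in Q7SST (59.9% of all genes) and in 4 of 6 in every STHdhQ111 list (55.4% to 58.6%). Myd88, Tirap, Ticam1 and Sarm1 were marked in all 6. Ticam2, the bridge between Tlr4 and Ticam1, was marked in Q7SST alone, with a score of 78 at percentile 66.8, and so was Pik3ap1, with a score of 30 at percentile 26.8. The nearest STHdhQ111 peak was 9382 bp from Ticam2 and 4041 bp from Pik3ap1, so a window of 5 kb left Ticam2 in Q7SST alone and not Pik3ap1.

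Of 10 genes listed as co-receptors and chaperones, 4 were marked in all 6 lists (53.5% of all genes), 4 in none (37.0%) and 2 in some (9.52%). Those 2 were unmarked in Q7SST, and the share of all genes marked in STHdhQ111 lists alone was not counted. Ly96, which holds lipopolysaccharide for Tlr4, was at percentile 98.3 to 99.4 in every list. Cd14, which delivers ligands to Tlr4 and Tlr2, was at 50.0 in Q7SST and 92.0 in Q111SST, and 85.7 after cyproheptadine, 83.6 after loxapine, 76.8 after DKI and 90.7 after meclizine. Like Tlr2, Cd14 was lowest in Q7SST, but so were Tlr4, the kinase gene Ikbke and the chemokine gene Cxcl1, while Myd88 was highest there. The share of all genes that were lowest in Q7SST was not counted. Unc93b1, which carries endosomal receptors to their compartment, had weak peaks in Q111SST (10.8), loxapine (15.9), DKI (6.0) and meclizine (18.7). Lrrc32 was in the list but is not an established co-receptor or chaperone of these receptors. It had peaks in Q111SST (30.9), cyproheptadine (1.4), loxapine (60.8) and meclizine (15.6).

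Of 10 negative regulators, 9 were marked in all 6 lists, among them Irak3, Tnfaip3 and Nfkbib, and Sigirr with loxapine alone, with a score of 12. Of 13 cytokine and chemokine targets, 5 were marked in all 6 lists, namely Il6, Ccl2, Cxcl1, Cxcl10 and Ptgs2. Il6 was at percentile 77.6 in Q7SST and 80.0 to 98.3 in the STHdhQ111 lists. Cxcl2 was marked in Q7SST alone (7.8), Ccl5 in Q111SST (27.6) and with loxapine (42.7), and Tnf, Il1b, Il12b, Ifnb1, Il10 and Nos2 in none. The nearest STHdhQ111 peak was 4789 bp from Cxcl2. A window of 5 kb therefore no longer left Cxcl2 in Q7SST alone, as for Pik3ap1 and unlike Ticam2.

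**Figure D5:**
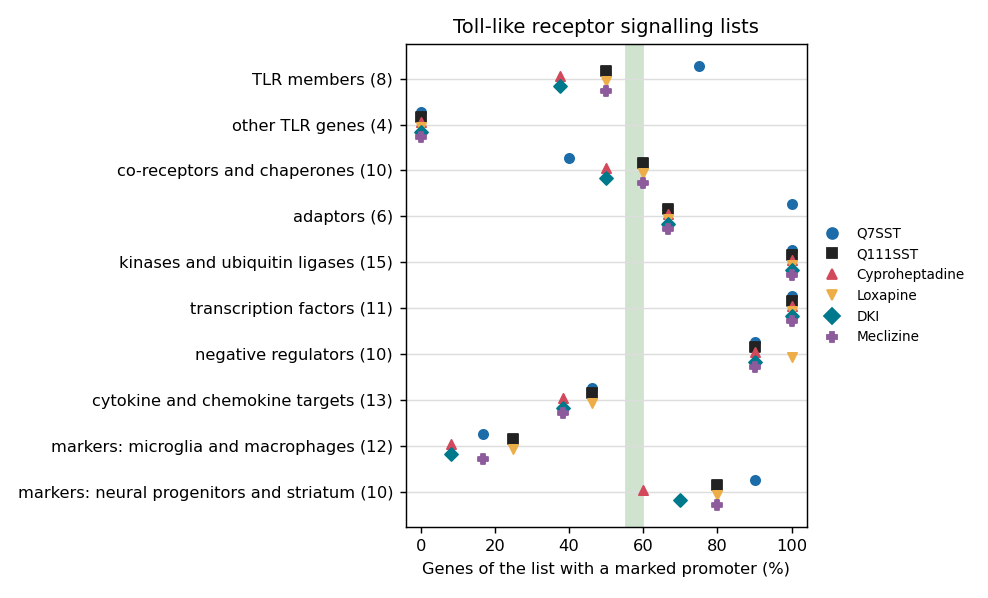
Share of genes with a marked promoter, in percent (horizontal axis), for the receptors, the lists of genes taken to act with them and 2 lists of cell type markers (rows, with the number of genes), in the 6 peak lists (symbols). The green band spans the share of all protein-coding genes, 55.4 to 59.9. Kinases and transcription factors are at 100 in all 6 lists, and the receptors and adaptors are higher in Q7SST than in the other 5.

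Since the receptors are best known in microglia, markers of that type were counted. Of 12 microglia and macrophage markers, 8 were marked in none of the 6 lists (37.0% of all genes were), including the defining genes Ptprc, Csf1r, Cx3cr1, Itgam and Spi1, and 1, Tmem119, in all 6 (53.5%). In Q7SST the 2 marked were Tmem119 (65.5) and Aif1 (6.1), and in Q111SST the 3 marked were Tmem119 (78.3), Laptm5 (25.9) and Aif1 (4.9). With a window of 5 kb 4 of the 12 were marked in Q7SST, 6 in Q111SST and 8 with loxapine, and at the pooled median score 1 in each of these 3 lists. Of 6 lymphocyte markers 0 were marked in any list. Of 10 neural progenitor markers, 5 were marked in all 6 lists, among them Vim, Dlx1 and Dlx2. Between the lines, Gsx2 was marked in Q7SST and in no other list, at 2.8, and Sox2 was unmarked in Q7SST and at 65.6 in Q111SST. Endothelial markers numbered 1 of 4 in all 6 lists, markers of mature neurons and glia 1 of 10, and fibroblast markers 4 of 6, beside the same 53.5% of all genes. These lists are short, and no test of their shares was made. The part of these differences between the lines in the receptor differences was not tested.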

How the data were processed

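H3K4me3 ChIP-Seq was performed on 6 samples, 1 per condition. The deposited files hold the coordinates of each peak and a score in whole numbers, made by the authors. The submitters' processing notes name Trimmomatic 0.36, Bowtie2, SAMtools 1.3, MACS2 and mm10. Thresholds, input controls, pooling of replicates and the scale of the score are not given in the sources used here. The lowest score was 10 in every list. Read totals are unknown, so depth could not be compared, and intervals cover counting error only.

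Peaks were compared with all transcript starts of GENCODE M21 in Python 3.11.15, and sequences with BLAST 2.17.0 and pysam 0.24.0. No peak lay beyond a chromosome end of GRCm38 (0 of 21 chromosomes). Coordinates count from 1. The marking step was tested on simulated data.

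The receptors and gene lists were chosen with earlier results of these data known. Named genes were the receptors, up to 4 per list (those differing between peak lists, then the strongest in Q111SST; others are named after their values were seen), the 3 nearest in pattern, and adjacent genes. Alternatives were windows of 0 or 5 kb, a score of at least 47 (the pooled median), lists of the 30758 strongest peaks, peaks merged within 1 kb, and protein-coding transcripts only. Strength was also ranked among promoter peaks alone, taken from the widest peak within 1 kb, or after merging. Values of some marker genes are not reported here.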

Additional observations from a re-analysis of the deposited data

How the results depend on the processing

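Tlr1 and Tlr6 were the 2 receptors marked in Q7SST alone under all 6 alternatives. Both peaks covered a start, at scores of 244 and 258, and the nearest STHdhQ111 peak was 8899 bp or more away. The windows and thresholds used could therefore not have changed this, so it is not a check of it. Of the counts of marked, gained or lost receptors, 75 of 96 were identical under an alternative, 13 changed by at most 1.5 times and 8 by more. With a window of 0 kb, Tlr12 dropped out of the 4 lists that had it and Tlr2 of loxapine and DKI, so that 2 receptors were marked with loxapine, 1 was lost with loxapine and 0 were lost with cyproheptadine. With 5 kb, Tlr5 was added in 5 lists, and 2 were lost with cyproheptadine. At the pooled median score, 2 were lost in Q7SST, which then marked 4, as many as Q111SST, and 1 each with loxapine and meclizine. In lists of equal size 1 was lost with meclizine. Of the strength percentiles, 48 were taken as unchanged under an alternative, such as Tlr2 with DKI at 61.3 and 61.0. The other 24 moved, all on ranking among promoter peaks alone. Tlr2 in Q7SST went from 29.8 to 5.2 and Tlr12 in Q111SST from 53.9 to 11.3, while Tlr1 and Tlr6 stood at 98.7 and 99.3. Counts changed by over 1.5 times in 1 case for the pathway lists, 44 for the marker lists and 6 for the other 4 receptors. Differences in score scale or depth between lists were not measured. No paired analysis was possible because there was 1 peak list for every condition, and no replicate could be left out.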
